A study of Homo sapiens and Mus musculus with 27 samples.

Results

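The genes described here encode the nuclear-encoded subunits of complexes I to V of oxidative phosphorylation. They were chosen by name: the NADH dehydrogenase symbols NDUFA, NDUFB, NDUFC, NDUFS and NDUFV, the succinate dehydrogenase symbols SDHA, SDHB, SDHC and SDHD, 8 UQCR symbols of complex III, the symbols COX4 to COX8, and the ATP5 symbols of ATP synthase, without pseudogene names. Of the human files' 59453 gene names, 85 were members (36 of complex I, 4 of complex II, 8 of complex III, 18 of complex IV and 19 of complex V), and 92 matching pseudogene names were left out. Of the mouse file's 55367 names, 84 were members (35, 4, 8, 20 and 17). NDUFA4, which carries a complex I name, was counted with complex IV, where the protein sits. The names also take in the ATP synthase inhibitor ATP5IF1, the supercomplex factor COX7A2L and gene copies matched by name only (ATP5MGL, Cox6c2). The measurements were RNA-seq read-pair counts from 27 libraries in 3 experiments, each with 3 groups of 3 replicates. In mouse 4T1 breast cancer cells and in human LM2 cells, a lung-metastatic derivative of MDA-MB-231 breast cancer cells, the groups were caMKL1 overexpression (caMKL1), overexpression of wild-type MKL1 (MKL1) and control. The third experiment held LM2 cells labelled neg, low and high for LifeAct, an actin-binding peptide, and the treatment label of the neg group is control. The genotype label is WT for every control, MKL1 and LifeAct library, while that of the caMKL1 libraries runs caMKL1, caMKL2 and caMKL3 over the replicates; titles and treatment labels read caMKL1, and the 3 were used as replicates. The labels name neither the promoters nor the vectors, and do not say whether a group is a clone or a pool. By the series title the study asks about activating MKL1 and its partner SRF in metastasis.

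Oxidative phosphorylation couples the oxidation of NADH and succinate to ATP synthesis in the inner mitochondrial membrane. Complexes I and II pass electrons through ubiquinone to complex III, cytochrome c carries them to complex IV, which reduces oxygen, and complex V makes ATP from the proton gradient. Most subunits are encoded in the nucleus and imported, and a small set comes from mitochondrial DNA, so both genomes supply parts of complexes I, III, IV and V. Transcription factors of the NRF1, GABP (an ETS factor) and YY1 type are known to act at many of these nuclear promoters, with PGC-1 coactivators. MKL1, now named MRTFA, is an actin-regulated coactivator of the serum response factor SRF.

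Levels are given as CPM, counts scaled to a common library size with TMM factors, unless TPM, which also divides by exon length, is named. Library totals ran from 21896459 to 29370432 counts in 4T1, from 22147429 to 32147377 in LM2 and from 15581289 to 23678322 in LifeAct. The overexpressed gene followed the labels: Mrtfa averaged 624 ± 47.4 CPM in 4T1 caMKL1, 2145 ± 56.2 CPM in 4T1 MKL1 and 39.2 ± 2.28 CPM in 4T1 control libraries, and MRTFA averaged 218 ± 41.5, 162 ± 20.3 and 10.8 ± 0.641 CPM in the same LM2 groups (SD, n = 3). Epithelial KRT8 and KRT18 and mesenchymal VIM were present in every group, and the epithelial marker CDH1 was under 1 CPM in LM2. Of the markers of other cell types, 8 to 9 of 12 lay under 1 CPM in every library of a 4T1 group, 9 of 11 in the LM2 groups and 7 to 8 of 11 in the LifeAct groups; the erythroid genes HBB and HBA1 and the fibroblast gene DCN were at or near 0. Their summed level moved with the groups, at 94.8 to 102.6 CPM in 4T1 caMKL1, 56.7 to 61.2 in 4T1 MKL1 and 36.3 to 38.6 in 4T1 control libraries (mainly Cd68 and Pdgfra). In LifeAct it was 106.6 to 112.4 CPM in neg and 44.5 to 45.9 in low (mainly PECAM1), and 22.6 to 24.8 in high libraries. The fibroblast gene COL1A1 averaged 11.2 CPM in neg, 11.6 in low and 12.3 in high, where PECAM1 averaged 7.47 CPM in high. In LM2 COL1A1 averaged 4.44 CPM with caMKL1, 4.78 with MKL1 and 6.00 in control. The LM2 sum was 6.63 to 7.50 CPM with caMKL1, 6.80 to 9.64 with MKL1 and 8.73 to 11.1 in control. The part of these markers in the results below was not tested. Mitochondrially encoded genes took 7.76%, 13.4% and 13.6% of counts in LM2 caMKL1 replicates 1 to 3, 6.18%, 9.87% and 7.11% in MKL1 and 7.84%, 7.73% and 8.94% in control. In LM2, MKL1 replicate 1 stood apart for the members themselves, with a summed member level of 6021 CPM, against 4085 and 4254 CPM in MKL1 replicates 2 and 3. In bulk RNA, fewer cells of a type and less RNA per cell cannot be told apart. No label states that replicates were separate cultures, so p-values measure only the spread between these samples, which may be technical.

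Per length, ATP synthase and small subunits led the levels within each group. In 4T1 control libraries the highest members were Atp5b, the catalytic beta subunit, at 813 ± 19.0 TPM, Atp5a1, the alpha subunit, at 579.6 ± 21.5 TPM, and the small complex IV subunit Cox8a at 569.7 ± 30.1 TPM (SD, n = 3). In LM2 control libraries they were NDUFS5, an accessory subunit of the membrane arm of complex I, at 718 ± 35.1 TPM, ATP5F1B at 688 ± 56.1 TPM and ATP5MD at 339 ± 28.4 TPM. In LifeAct neg libraries they were ATP5F1B at 821 ± 9.70 TPM, NDUFS5 at 495 ± 37.7 TPM and COX8A at 411 ± 26.1 TPM. ATP5F1B and NDUFS5 were thus the leading pair in both human experiments, in either order. The members that did not pass the filter on low counts were mostly tissue isoforms of complex IV: Cox4i2, Cox6b2, Cox7b2, Cox8b and Cox8c in 4T1, where 79 of 84 were tested, COX4I2, COX6A2, COX6B2, COX7A1, COX7B2, COX8C and ATP5MGL in LM2, where 78 of 85 were tested, and the same names without COX7A1 and ATP5MGL in LifeAct, where 80 of 85 were tested. No library had more than 1.07 CPM of any of them.

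**Figure D1:**
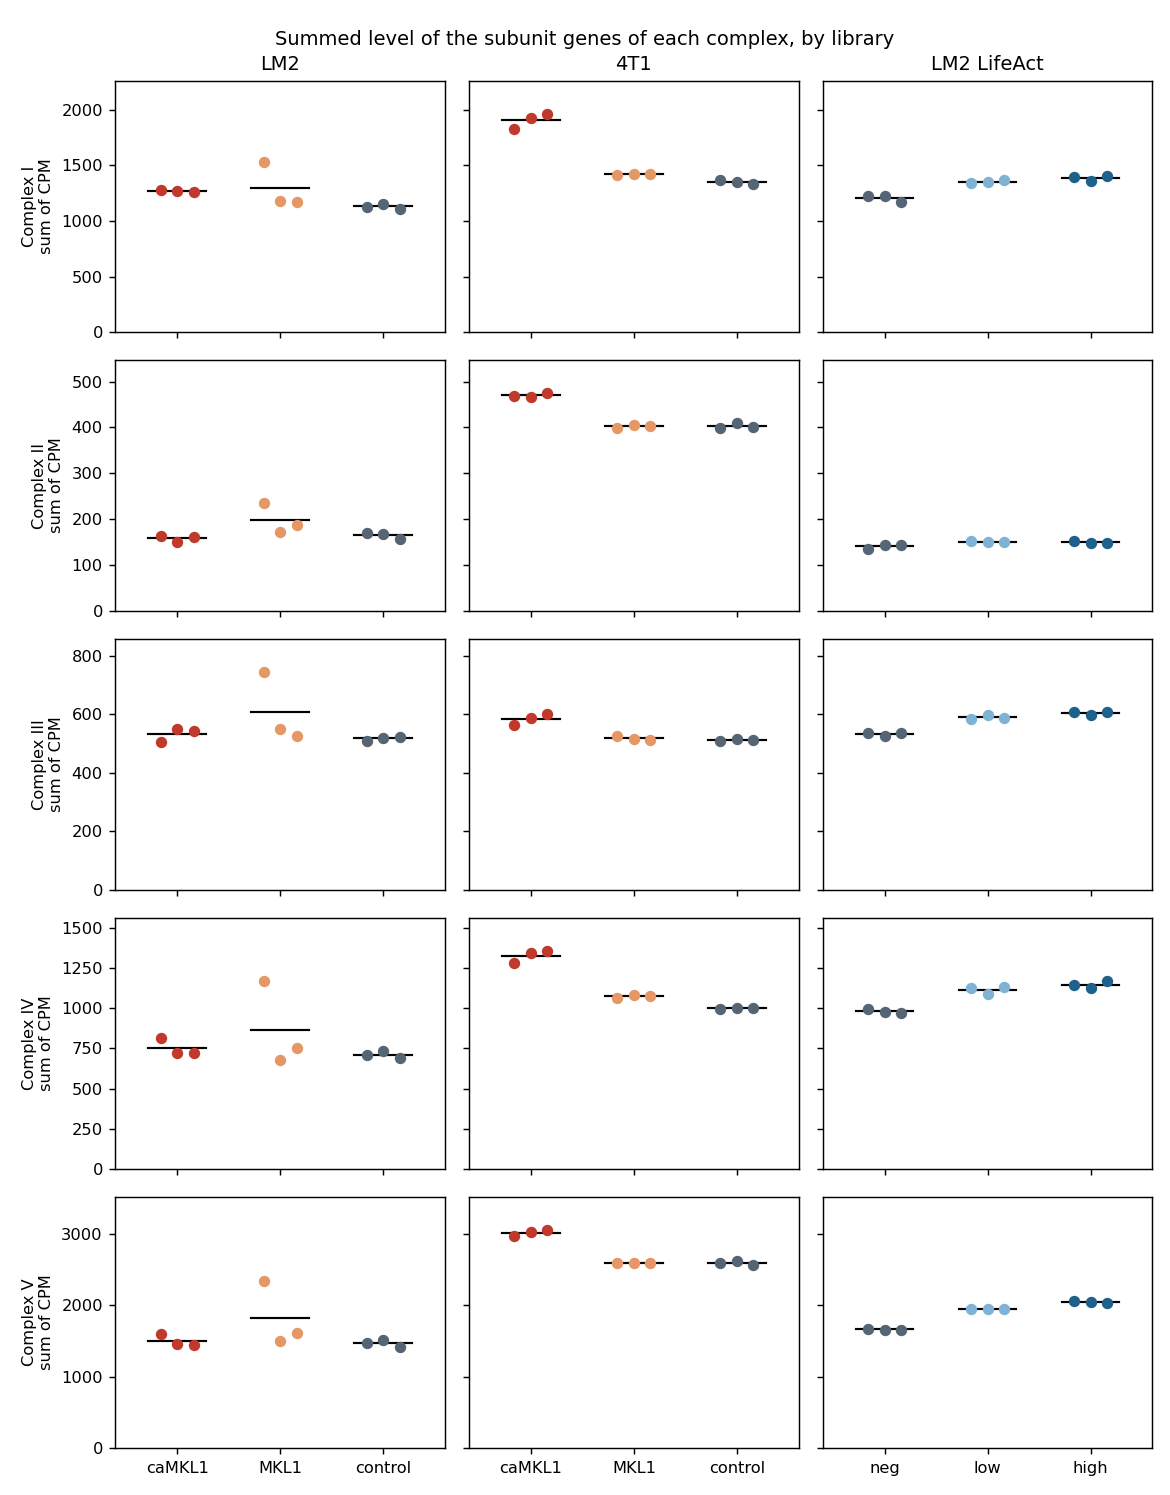
Summed CPM of the members of complexes I to V on the y axis, for each library of the 3 experiments, by group; each point is a library and each line a group mean. The 3 4T1 caMKL1 libraries lie above their MKL1 and control libraries in every complex, LM2 MKL1 replicate 1 lies above the other libraries of its experiment, and LifeAct low and high lie above neg. Summed TPM, which take no TMM factor, overlapped between 4T1 caMKL1 and control libraries for complexes III and V.

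In 4T1 cells complex I as a whole was higher with caMKL1, with summed levels of 1832, 1931 and 1965 CPM in caMKL1 libraries, against 1371, 1352 and 1334 CPM in control libraries. Complex IV summed to 1279, 1346 and 1359 CPM with caMKL1, against 996, 1005 and 1001 CPM in control. Neither sum overlapped between the groups. Gene by gene (edgeR quasi-likelihood test, Benjamini-Hochberg adjusted p under 0.05 over all genes tested), 55 of the 79 tested members rose and 5 fell, where 36.2% of all tested genes rose and 35.8% fell. The median log2 ratio was 0.29 over the members and -0.02 over all genes. The rises were 29 of 35 in complex I, 2 of 4 in complex II, 5 of 8 in complex III, 10 of 15 in complex IV and 9 of 17 in complex V, and the falls were 1, 0, 1, 0 and 3. Scaled by library totals in place of TMM, which moves the median of all genes to -0.21, 39 members rose and 20 fell.

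LM2 cells gave a split picture with the same construct label. With caMKL1, 12 of the 78 tested members rose and 11 fell against control, where 31.9% of all tested genes rose and 33.0% fell. The median log2 ratio was 0.0022 over the members and -0.05 over all genes. Complex I held 8 rises and 6 falls among 36 members, complex V 2 and 3 among 18, complex III 1 and 1 among 8, complex IV 1 rise among 12 and complex II 1 fall among 4. Scaled by library totals, which moves the median of all genes to -0.46, 6 members rose and 39 fell. Without MKL1 replicate 1, a library of neither group that enters the shared estimate of spread, 19 rose and 19 fell, and without it and caMKL1 replicate 1, 20 rose and 22 fell.

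The LifeAct experiment was the other one with mostly rises. Against neg, 54 of the 80 tested members rose and 10 fell in high cells, where 36.0% of all tested genes rose and 35.2% fell. In low cells 50 rose and 4 fell against neg, where 26.0% of all tested genes rose and 23.6% fell. High against low gave 23 rises and 7 falls, with 26.6% and 23.7% of all genes, and 14 rises and 16 falls when scaled by library totals, which moves the median of all genes there to -0.11. The members' median log2 ratio was 0.31 for high over neg, 0.20 for low over neg and 0.05 for high over low. In high over neg cells the rises were 23 of 36 in complex I, 2 of 4 in complex II, 5 of 8 in complex III, 9 of 13 in complex IV and 15 of 19 in complex V. Without low replicate 1, or without neg replicate 2, 2 members fell in low over neg.

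**Figure D2:**
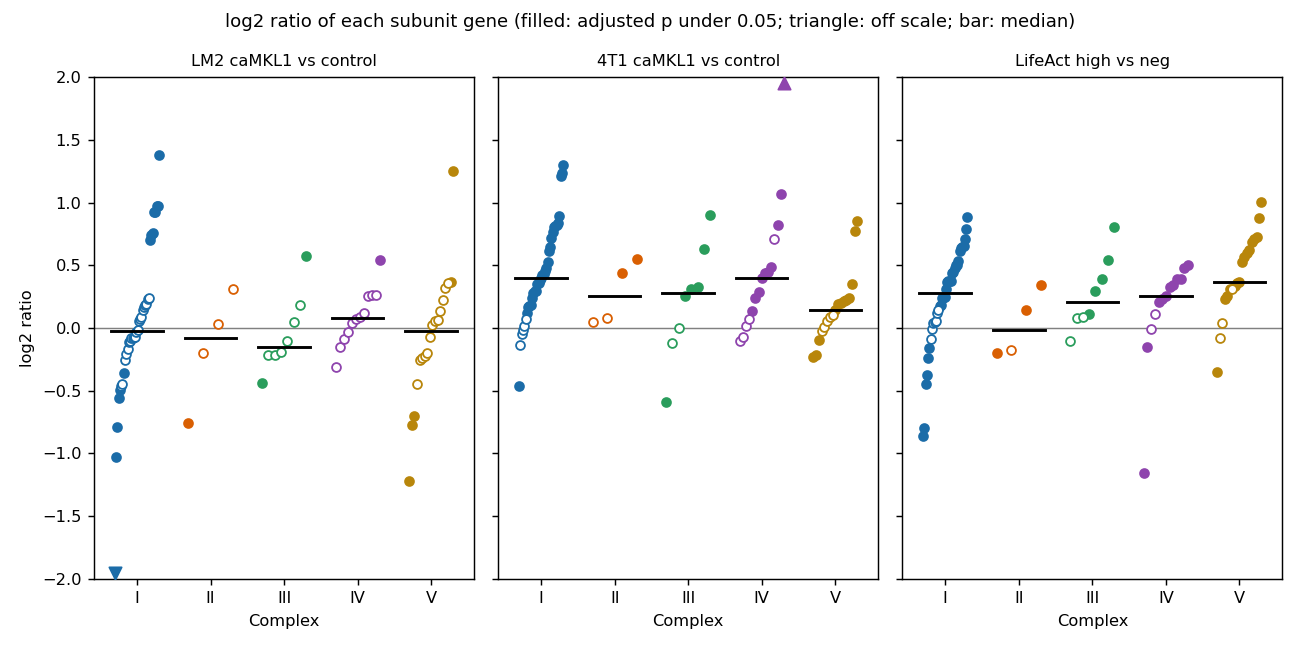
Log2 ratio of each tested member on the y axis, by complex on the x axis, for LM2 caMKL1 over control, 4T1 caMKL1 over control and LifeAct high over neg; bars are medians, filled points have adjusted p under 0.05, and triangles mark Cox6a2 in 4T1 and NDUFA7 in LM2, which lie off the scale. In 4T1 and LifeAct most filled points lie above 0, and in LM2 they lie on both sides.

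In complex I of 4T1 cells all 6 core subunits counted here, which carry the flavin, the iron-sulfur clusters and the quinone site, rose with caMKL1, as did 22 of 28 accessory subunits. Of all tested genes 36.2% rose and 35.8% fell, and 6 core subunits are too few for a firm contrast between the classes. Ndufv2 (chr17:66078638-66101559, GRCm38), a core iron-sulfur subunit of the NADH-oxidising module, had 141, 143 and 134 CPM in caMKL1 libraries, against 78.1, 81.5 and 78.9 CPM in control libraries (log2 ratio 0.81 ± 0.037 (SE), adjusted p = 1.9e-15). Ndufs1, the largest iron-sulfur subunit, had 158, 162 and 169 CPM in caMKL1 libraries, against 99.3, 102.7 and 94.8 CPM in control libraries (log2 ratio 0.72 ± 0.037 (SE), adjusted p = 1.5e-14). In both the caMKL1 libraries lay wholly above the control libraries. Ndufa11 (chr17:56717767-56722141, GRCm38), a membrane accessory subunit, had the largest rise of a member at 5 CPM or more, with 32.5, 31.8 and 33.3 CPM in caMKL1 libraries, against 14.3, 12.5 and 12.8 CPM in control libraries (log2 ratio 1.30 ± 0.069 (SE), adjusted p = 2.4e-14). Ndufa6, an accessory subunit of the LYR family in the matrix arm, had 45.7, 51.6 and 49.1 CPM in caMKL1 libraries, against 22.0, 20.5 and 21.0 CPM in control libraries (log2 ratio 1.21 ± 0.058 (SE), adjusted p = 3.5e-15), and the membrane-arm subunit Ndufb8 had 98.9, 91.9 and 95.4 CPM in caMKL1 libraries, against 53.2, 52.4 and 48.1 CPM in control libraries (log2 ratio 0.90 ± 0.044 (SE), adjusted p = 5.0e-15). These groups did not overlap either. The fall of complex I was Ndufb2, a small membrane-arm subunit, with 7.52, 6.86 and 4.94 CPM in caMKL1 libraries, against 8.41, 9.09 and 9.04 CPM in control libraries (log2 ratio -0.46 ± 0.12 (SE), adjusted p = 0.0012).

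In LM2 cells the core and accessory subunits of complex I were counted apart: 1 of the 6 core subunits rose and 3 fell with caMKL1, and 7 of 29 accessory subunits rose and 2 fell. Of all tested genes 31.9% rose and 33.0% fell. The 6 core subunits are too few for a firm contrast with the accessory subunits. NDUFS1 (chr2:206114817-206159509, GRCh38) had 120.3, 114 and 114 CPM in caMKL1 libraries, against 162, 163 and 164 CPM in control libraries (log2 ratio -0.49 ± 0.081 (SE), adjusted p = 5.9e-05). NDUFS3, a core subunit of the quinone-binding module, had 13.3, 8.61 and 8.19 CPM in caMKL1 libraries, against 21.0, 22.4 and 18.4 CPM in control libraries (log2 ratio -1.03 ± 0.21 (SE), adjusted p = 4.6e-04). The caMKL1 libraries lay below the control libraries in both, and caMKL1 replicate 1 was the highest of its group. The core subunit NDUFV2 fell as well, with a log2 ratio of -0.79, and the core subunit that rose was NDUFS8 (0.74). Among accessory subunits, NDUFS5 (chr1:39026318-39034636, GRCh38) had 186, 182 and 185 CPM in caMKL1 libraries, against 93.8, 100.4 and 96.9 CPM in control libraries (log2 ratio 0.93 ± 0.12 (SE), adjusted p = 4.1e-06). NDUFA6 (chr22:42085526-42090884, GRCh38) had 50.4, 51.6 and 50.9 CPM in caMKL1 libraries, against 25.7, 25.5 and 26.7 CPM in control libraries (log2 ratio 0.97 ± 0.13 (SE), adjusted p = 5.7e-06). NDUFB11, a subunit of the membrane arm, had the largest rise, with 26.8, 16.9 and 17.6 CPM in caMKL1 libraries, against 9.17, 7.56 and 6.98 CPM in control libraries (log2 ratio 1.38 ± 0.23 (SE), adjusted p = 8.9e-05). In these 3 the groups did not overlap, and none of the 3 shares exons with another gene name. NDUFS5 has 6 pseudogene names, NDUFB11 has 1 and NDUFA6 has 0, so some reads of NDUFS5 and NDUFB11 may go uncounted. NDUFA1, NDUFB2, NDUFB6 and NDUFC2 rose too, by 0.76, 0.70, 0.93 and 0.97; the calls of NDUFA1, NDUFB2 and NDUFS8 were lost when scaled by library totals. NDUFC2 shares 21.0% of its exon length with other names, chiefly the read-through NDUFC2-KCTD14, whose shared reads go uncounted. NDUFB2 shares 35.9% of its exon length with other names, chiefly BRAF. NDUFA7 had 2 reads over the 3 caMKL1 libraries and 31 over the 3 control libraries, a ratio of 0.0742 with a 95% counting interval of 0.00860 to 0.291, and 32.5% of its exon length is shared.

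In LifeAct cells 21 of 29 accessory subunits of complex I rose and 4 fell in high over neg. Of the 6 core subunits 2 rose and 1 fell, a class too small for a firm contrast. Of all tested genes 36.0% rose and 35.2% fell. NDUFS6, a zinc-binding accessory subunit, had 13.7, 13.9 and 11.3 CPM in neg, 20.0, 20.7 and 20.9 CPM in low and 23.8, 22.1 and 25.8 CPM in high libraries (high over neg log2 ratio 0.89 ± 0.089 (SE), adjusted p = 6.3e-10). NDUFA8, an accessory subunit with disulfide-bonded twin cysteine motifs, had 29.8, 30.3 and 30.9 CPM in neg, 41.3, 37.7 and 43.1 CPM in low and 47.1, 45.01 and 47.2 CPM in high libraries (high over neg log2 ratio 0.62 ± 0.064 (SE), adjusted p = 1.2e-09). Both followed the order neg, low, high without overlap between neg and the other groups. NDUFV2, 1 of the 6 core subunits that all rose in 4T1 caMKL1, had 10.5, 11.8 and 9.96 CPM in neg, 6.57, 6.01 and 6.65 CPM in low and 5.41, 6.66 and 6.68 CPM in high libraries (high over neg log2 ratio -0.80 ± 0.12 (SE), adjusted p = 7.4e-07), and its low and high libraries lay below every neg library. Human NDUFV2 shares 28.4% of its exon length with another name and has 1 pseudogene name, so some of its reads may go uncounted. NDUFA10 also fell, with 73.3, 77.7 and 69.4 CPM in neg, 60.6, 67.6 and 66.0 CPM in low and 55.0, 54.6 and 52.2 CPM in high libraries (high over neg log2 ratio -0.44 ± 0.057 (SE), adjusted p = 6.2e-08). NDUFC2 had 6.28, 7.77 and 9.23 CPM in neg, 8.32, 8.45 and 7.73 CPM in low and 11.3, 14.7 and 14.6 CPM in high libraries; high over low was log2 ratio 0.72 ± 0.12 (SE), adjusted p = 1.1e-05, and low and neg libraries overlapped. The core subunit NDUFS1 had 145, 139 and 139 CPM in high libraries, against 133, 135 and 139 CPM in neg libraries, and did not pass the test (log2 ratio 0.059 ± 0.042 (SE), adjusted p = 0.21).

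**Figure D3:**
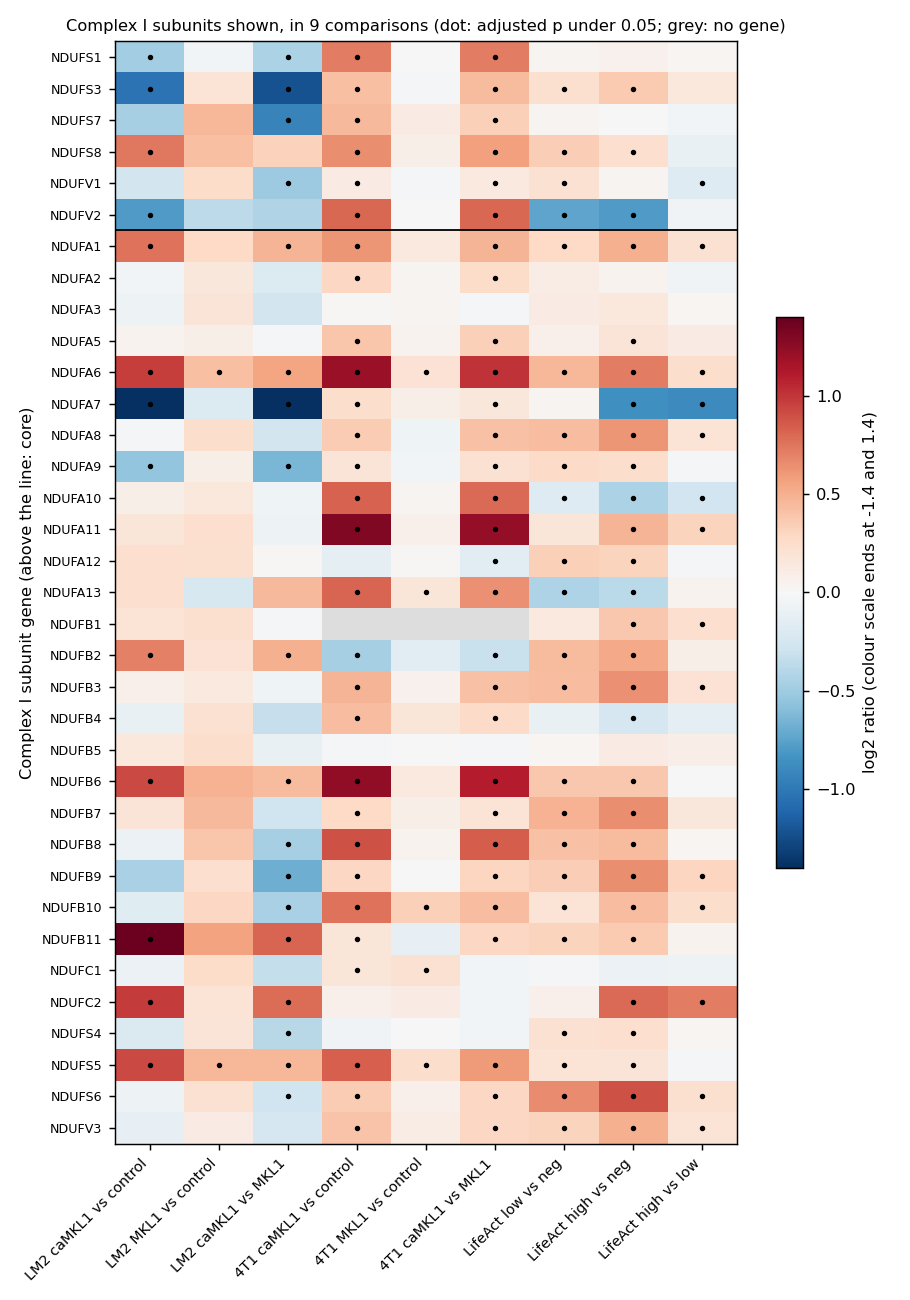
Log2 ratios of complex I members (rows, core subunits first) in the 9 comparisons (columns), with colours limited to 1.4 in either direction and dots where adjusted p was under 0.05. Grey marks a human member with no matching mouse gene name. The 4T1 caMKL1 columns are of the higher colour in most rows, and the LM2 caMKL1 columns hold both colours, with 3 of 6 core rows called lower against control.

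Complex II has 4 nuclear-encoded subunits and none from mitochondrial DNA: the flavoprotein SDHA, the iron-sulfur protein SDHB and the membrane anchors SDHC and SDHD. In 4T1 cells Sdhb and Sdhd rose with caMKL1. Sdhb had 95.3, 93.7 and 94.7 CPM in caMKL1 libraries, against 64.8, 64.2 and 64.4 CPM in control libraries (log2 ratio 0.55 ± 0.037 (SE), adjusted p = 2.4e-12), with no overlap. Sdhd had 101.9, 95.9 and 103.2 CPM in caMKL1 libraries, against 72.0, 75.7 and 74.6 CPM in control libraries (log2 ratio 0.44 ± 0.04 (SE), adjusted p = 7.9e-10), also without overlap. Sdha had 184, 193 and 190.2 CPM in caMKL1 libraries, against 182, 188 and 178 CPM in control libraries and did not pass (log2 ratio 0.05 ± 0.031 (SE), adjusted p = 0.16), nor did Sdhc (log2 ratio 0.08, adjusted p = 0.057). In LM2 cells SDHA (chr5:218241-257082, GRCh38) was the member called, with 6.31, 6.25 and 6.41 CPM in caMKL1 libraries, against 10.8, 10.5 and 10.7 CPM in control libraries (log2 ratio -0.76 ± 0.13 (SE), adjusted p = 7.1e-05), and the caMKL1 libraries lay far below the control libraries. SDHB had 39.2, 36.5 and 39.7 CPM in caMKL1 libraries, against 38.8, 37.0 and 37.0 CPM in control libraries and did not pass (log2 ratio 0.033 ± 0.12 (SE), adjusted p = 0.82). In LifeAct cells SDHB had 40.1, 44.4 and 42.1 CPM in neg, 49.9, 48.1 and 51.7 CPM in low and 56.1, 48.9 and 55.0 CPM in high libraries (high over neg log2 ratio 0.34 ± 0.063 (SE), adjusted p = 2.0e-05). SDHA had 25.7, 28.2 and 25.2 CPM in neg, 24.9, 24.4 and 25.2 CPM in low and 25.5, 22.4 and 20.5 CPM in high libraries (high over neg log2 ratio -0.20 ± 0.08 (SE), adjusted p = 0.025), and its high and neg libraries overlapped only at the edge of the ranges. The catalytic flavoprotein and the iron-sulfur subunit of the same complex thus had ratios of opposite sign in the LifeAct experiment. Human SDHA shares 21.6% of its exon length with another name and has 3 pseudogene names, while SDHB has 0 of either. Reads that fit both places may go uncounted, so the human SDHA counts and ratios are uncertain to that extent.

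In complex III of 4T1 cells the small subunits Uqcrq and Uqcrb led the rises with caMKL1. Uqcrq had 47.5, 55.0 and 56.8 CPM in caMKL1 libraries, against 32.2, 25.8 and 27.8 CPM in control libraries (log2 ratio 0.90 ± 0.069 (SE), adjusted p = 3.0e-11). Uqcrb had 62.2, 68.7 and 69.4 CPM in caMKL1 libraries, against 40.9, 43.7 and 44.9 CPM in control libraries (log2 ratio 0.63 ± 0.049 (SE), adjusted p = 4.0e-11). The hinge protein Uqcrh, which lies at the cytochrome c docking side, went the other way, with 36.9, 39.2 and 40.6 CPM in caMKL1 libraries, against 55.8, 61.4 and 58.9 CPM in control libraries (log2 ratio -0.59 ± 0.056 (SE), adjusted p = 1.3e-09), the largest fall of any 4T1 member at 5 CPM or more. None of the 3 overlapped between the groups. In LM2 cells UQCRC1, a core protein on the matrix side, had 54.3, 37.4 and 35.4 CPM in caMKL1 libraries, against 26.5, 28.9 and 30.0 CPM in control libraries (log2 ratio 0.57 ± 0.16 (SE), adjusted p = 0.0051), a call lost when scaled by library totals, and the Rieske iron-sulfur protein UQCRFS1 had 47.5, 42.7 and 41.6 CPM in caMKL1 libraries, against 58.6, 62.2 and 58.2 CPM in control libraries (log2 ratio -0.44 ± 0.13 (SE), adjusted p = 0.0088). Their groups did not overlap, with caMKL1 replicate 1 the highest of its group in both. In LifeAct cells UQCR11 had 18.5, 18.9 and 21.0 CPM in neg, 27.0, 24.7 and 26.0 CPM in low and 33.4, 35.2 and 33.5 CPM in high libraries (high over neg log2 ratio 0.80 ± 0.073 (SE), adjusted p = 7.2e-11), a separation of all 3 groups. UQCRQ had 47.8, 50.4 and 50.5 CPM in neg, 68.8, 67.0 and 70.6 CPM in low and 69.2, 72.3 and 74.6 CPM in high libraries (high over neg log2 ratio 0.54 ± 0.053 (SE), adjusted p = 4.8e-10), where low and high overlapped. UQCRFS1 rose in high over neg (log2 ratio 0.39) and in high over low (0.20).

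In complex IV of 4T1 cells Ndufa4 (chr6:11900292-11907497, GRCm38) had the smallest adjusted p of all members, with 155, 165 and 162 CPM in caMKL1 libraries, against 72.8, 78.2 and 79.0 CPM in control libraries (log2 ratio 1.07 ± 0.038 (SE), adjusted p = 1.2e-17). Cox4i1, the widely expressed form of the regulatory subunit 4, had 277, 284 and 295 CPM in caMKL1 libraries, against 203, 204 and 204 CPM in control libraries (log2 ratio 0.49 ± 0.03 (SE), adjusted p = 5.0e-13). Cox5b, a zinc-binding matrix subunit, had 88.9, 102.4 and 103.5 CPM in caMKL1 libraries, against 55.0, 56.2 and 55.4 CPM in control libraries (log2 ratio 0.82 ± 0.052 (SE), adjusted p = 6.7e-13). The caMKL1 and control libraries were apart in all 3. Cox6a2, the heart and skeletal muscle form of subunit 6a, had 45, 67 and 74 reads in caMKL1 libraries, against 1, 4 and 0 reads in control libraries, a 42.1-fold higher rate with a 95% counting interval of 17.7 to 131. Its 11, 5 and 6 reads in MKL1 libraries were 5.29-fold over control (1.96 to 17.9). These intervals cover counting error only. The widely expressed partner Cox6a1 rose by 0.44 on the log2 scale and Cox7a2l by 0.39. Cox6b1, Cox8a and the muscle form Cox7a1 did not pass, with log2 ratios of 0.019, 0.069 and -0.10. In LM2 cells NDUFA4 was the only complex IV call of the 12 tested, with 97.6, 85.7 and 88.9 CPM in caMKL1 libraries, against 60.8, 66.6 and 59.9 CPM in control libraries (log2 ratio 0.54 ± 0.20 (SE), adjusted p = 0.025). That call was lost under DESeq2 and library totals and without caMKL1 replicate 1, control replicate 1 or control replicate 3. COX4I1, COX6A1, COX7A2, COX7A2L and COX8A did not pass in LM2, with log2 ratios of 0.12, 0.26, 0.26, -0.029 and 0.042.

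In LifeAct cells COX5A, a matrix subunit of complex IV, had 73.9, 70.3 and 68.0 CPM in neg, 94.3, 90.5 and 91.5 CPM in low and 99.1, 93.8 and 102.05 CPM in high libraries (high over neg log2 ratio 0.48 ± 0.05 (SE), adjusted p = 1.5e-09). COX7A2L had 43.4, 41.7 and 40.5 CPM in neg, 47.2, 46.1 and 45.5 CPM in low and 59.8, 58.6 and 59.9 CPM in high libraries (high over neg log2 ratio 0.51 ± 0.055 (SE), adjusted p = 3.5e-09; high over low log2 ratio 0.36 ± 0.054 (SE), adjusted p = 1.9e-06). Its 3 groups were apart, with most of the step between low and high. COX7A1, the muscle form of the same subunit family, had 2.90, 3.75 and 3.42 CPM in neg, 2.02, 3.21 and 2.87 CPM in low and 1.66, 0.980 and 1.77 CPM in high libraries (high over neg log2 ratio -1.16 ± 0.23 (SE), adjusted p = 5.9e-05), and the high libraries lay below all others. COX6C fell by 0.16 on the log2 scale. It has 17 pseudogene names, the most of any member, so some of its reads may go uncounted.

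Among the F1 head subunits of complex V, which carry the catalytic sites, 3 of 5 rose and 1 fell in 4T1 cells with caMKL1. Of all tested genes 36.2% rose and 35.8% fell. Atp5b had 1183, 1198 and 1221 CPM in caMKL1 libraries, against 941, 950.2 and 932 CPM in control libraries (log2 ratio 0.35 ± 0.024 (SE), adjusted p = 4.7e-12), while Atp5a1 had 494, 501 and 498 CPM in caMKL1 libraries, against 506, 498 and 485 CPM in control libraries and did not pass (log2 ratio 0.0048 ± 0.026 (SE), adjusted p = 0.88). Atp5o (chr16:91684398-91931687, GRCm38), the peripheral stalk subunit OSCP that conveys oligomycin sensitivity, had 123, 120.0 and 118 CPM in caMKL1 libraries, against 75.3, 70.2 and 66.3 CPM in control libraries (log2 ratio 0.77 ± 0.043 (SE), adjusted p = 6.9e-14). Atp5b and Atp5o were apart between the groups and Atp5a1 overlapped. Mouse Atp5o shares 43.8% of its exon length with 3 other names, so some of its reads may go uncounted. The 5 falls of 4T1 members held 3 of this complex, Atp5g2, Atp5mpl and Atp5d, by 0.23, 0.22 and 0.10 on the log2 scale. In LM2 cells ATP5F1A, the alpha subunit (chr18:46080248-46104334, GRCh38), had 150.1, 123 and 119.9 CPM in caMKL1 libraries, against 214, 218 and 206 CPM in control libraries (log2 ratio -0.70 ± 0.13 (SE), adjusted p = 2.4e-04). ATP5MF, subunit f of the membrane part (chr7:99448475-99466186, GRCh38), had 81.6, 81.4 and 78.5 CPM in caMKL1 libraries, against 32.1, 35.9 and 33.4 CPM in control libraries (log2 ratio 1.25 ± 0.18 (SE), adjusted p = 1.7e-05). Both separated the groups, in opposite directions. ATP5MF shares 8.64% of its exon length with other names, mainly the read-through ATP5MF-PTCD1. ATP5F1A has 7 pseudogene names and ATP5MF has 6, so reads that fit several places may go uncounted. ATP5F1C, the gamma subunit, rose by 0.36 under TMM and had -0.050 when scaled by library totals.

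In LifeAct cells complex V had the largest share of rises of any complex, 15 of 19 in high over neg. ATP5PB, subunit b of the peripheral stalk (chr1:111448864-111462773, GRCh38), had 89.5, 90.1 and 95.9 CPM in neg, 121, 125 and 128 CPM in low and 148, 148 and 146 CPM in high libraries (high over neg log2 ratio 0.68 ± 0.045 (SE), adjusted p = 7.2e-14). ATP5PD, subunit d of the same stalk, had 58.6, 61.4 and 61.4 CPM in neg, 69.0, 71.4 and 71.3 CPM in low and 84.0, 89.0 and 88.0 CPM in high libraries (high over neg log2 ratio 0.52 ± 0.05 (SE), adjusted p = 2.1e-10). Both stepped up at low and again at high, with no overlap between groups. ATP5PB has 7 pseudogene names and ATP5PD has 4, so some of their reads may go uncounted. ATP5IF1, which blocks ATP hydrolysis by the reversed enzyme, had 43.0, 43.1 and 47.5 CPM in neg, 51.6, 53.7 and 53.6 CPM in low and 63.4, 68.1 and 66.1 CPM in high libraries (high over neg log2 ratio 0.56 ± 0.057 (SE), adjusted p = 7.1e-10). ATP5MF rose in low over neg as well (log2 ratio 0.47 ± 0.061 (SE), adjusted p = 2.7e-07). Between the high and low groups the smallest adjusted p of the members belonged to ATP5F1E, the epsilon subunit (log2 ratio 0.43 ± 0.062 (SE), adjusted p = 1.1e-06).

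The c-ring of complex V is built from a single mature protein encoded by ATP5MC1, ATP5MC2 and ATP5MC3 (Atp5g1, Atp5g2 and Atp5g3 in the mouse table), whose precursors differ in their import sequences, and these genes did not move together. In 4T1 cells Atp5g1 had 50.3, 50.6 and 53.2 CPM in caMKL1 libraries, against 28.6, 27.9 and 28.7 CPM in control libraries (log2 ratio 0.86 ± 0.05 (SE), adjusted p = 1.4e-13). Atp5g2 had 33.8, 33.1 and 33.6 CPM in caMKL1 libraries, against 39.6, 38.5 and 39.5 CPM in control libraries (log2 ratio -0.23 ± 0.048 (SE), adjusted p = 1.9e-04). Atp5g3 had 123, 128 and 125 CPM in caMKL1 libraries, against 105, 113 and 109 CPM in control libraries (log2 ratio 0.20 ± 0.035 (SE), adjusted p = 1.8e-05). The groups were apart for all 3, upwards for Atp5g1 and Atp5g3 and downwards for Atp5g2. In LM2 cells ATP5MC1 had 11.8, 8.46 and 8.39 CPM in caMKL1 libraries, against 16.4, 18.4 and 14.6 CPM in control libraries (log2 ratio -0.78 ± 0.21 (SE), adjusted p = 0.0047), and ATP5MC2 had 15.7, 10.8 and 9.88 CPM in caMKL1 libraries, against 28.5, 28.3 and 28.2 CPM in control libraries (log2 ratio -1.22 ± 0.23 (SE), adjusted p = 2.7e-04). Both lay below control without overlap, while ATP5MC3 had 41.8, 43.4 and 45.8 CPM in caMKL1 libraries, against 53.3, 52.7 and 48.8 CPM in control libraries and did not pass (log2 ratio -0.24 ± 0.14 (SE), adjusted p = 0.14). In LifeAct cells ATP5MC1 had 23.6, 22.8 and 21.6 CPM in neg, 40.9, 42.8 and 39.5 CPM in low and 46.9, 44.0 and 45.4 CPM in high libraries (high over neg log2 ratio 1.00 ± 0.066 (SE), adjusted p = 6.7e-14). ATP5MC2 had 136, 136 and 128 CPM in neg, 122, 119 and 123 CPM in low and 112, 98.4 and 102.98 CPM in high libraries (high over neg log2 ratio -0.35 ± 0.049 (SE), adjusted p = 3.3e-07), and ATP5MC3 had 64.7, 63.1 and 64.7 CPM in neg, 75.5, 80.9 and 75.5 CPM in low and 77.2, 70.9 and 77.5 CPM in high libraries (high over neg log2 ratio 0.23 ± 0.052 (SE), adjusted p = 2.9e-04). ATP5MC1 stepped up and ATP5MC2 stepped down across the groups without overlap between neg and high. The human annotation holds 8 pseudogene names of ATP5MC1 and 4 of ATP5MC2, and the 3 genes have like coding stretches, so reads that fit more than 1 place may go uncounted and each count is uncertain to that extent.

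**Figure D4:**
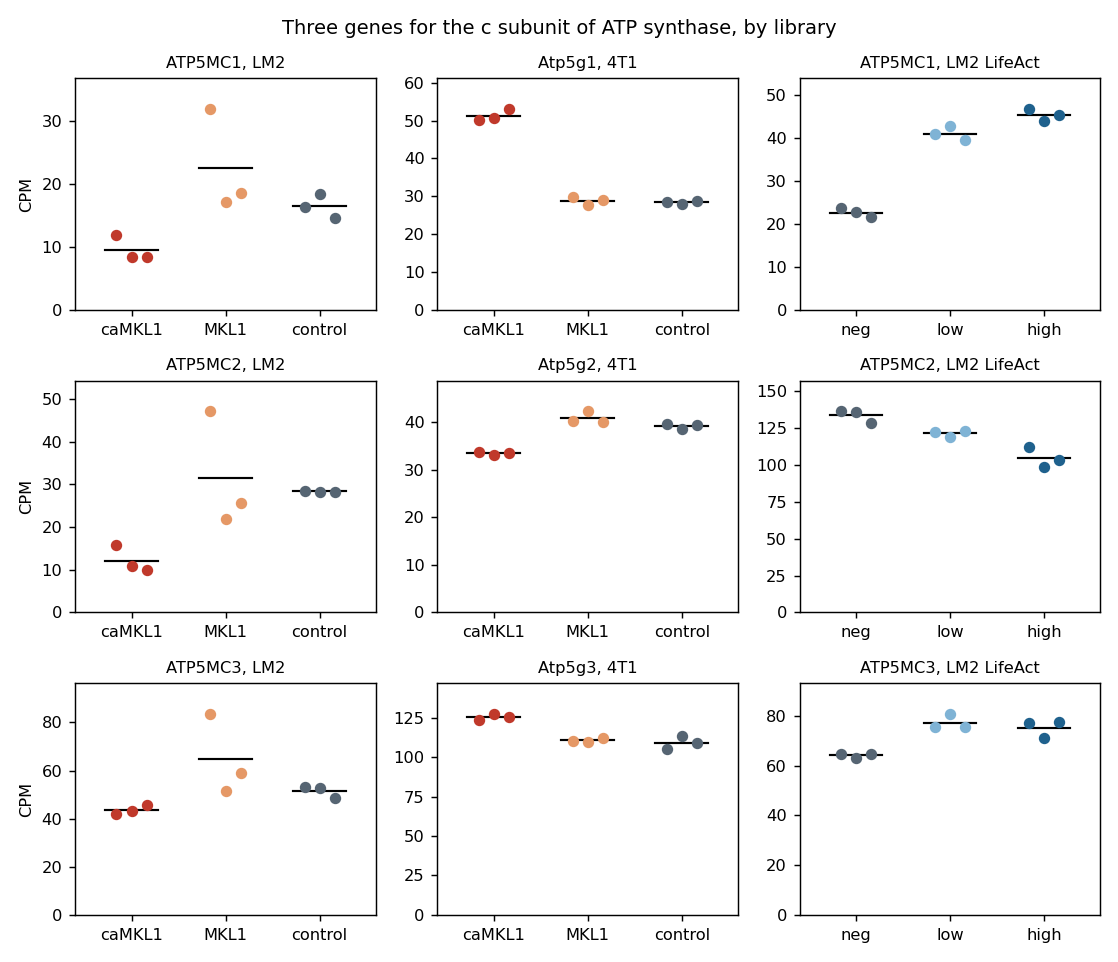
CPM of the 3 genes for the c subunit of ATP synthase, by library, in the 3 experiments; each point is a library and each line a group mean. ATP5MC2 (Atp5g2) lies lower in 4T1 caMKL1, LM2 caMKL1 and LifeAct high libraries than in their control or neg libraries, while ATP5MC1 (Atp5g1) is higher in 4T1 caMKL1 and LifeAct high and lower in LM2 caMKL1.

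Fewer members were called with MKL1 than with caMKL1, and so were fewer of all tested genes. Of all tested genes 34.3% were called with MKL1 and 72% with caMKL1 in 4T1, and 12% and 64.9% in LM2. The members' shares higher with MKL1, 22.8% in 4T1 and 5.13% in LM2, were near those of all genes given below. Their shares lower, 3.80% and 0%, were below those of all genes. In 4T1 cells 18 of 79 rose and 3 fell against control, where 19.3% of all tested genes rose and 15% fell, with a members' median log2 ratio of 0.07; scaled by library totals, 8 rose and 6 fell. Ndufb10, an accessory subunit of the membrane arm of complex I, had 28.4, 28.2 and 27.8 CPM in MKL1 libraries, against 21.7, 22.8 and 22.5 CPM in control libraries (log2 ratio 0.33 ± 0.059 (SE), adjusted p = 1.0e-04). Atp5j2, subunit f in the mouse table, had 73.3, 77.8 and 74.5 CPM in MKL1 libraries, against 65.2, 65.0 and 60.8 CPM in control libraries (log2 ratio 0.24 ± 0.043 (SE), adjusted p = 9.9e-05), and did not pass with caMKL1. Neither overlapped between MKL1 and control. The falls were Sdha, Uqcrc1 and Atp5a1, by 0.11, 0.11 and 0.12 on the log2 scale. In LM2 cells 4 of 78 rose and 0 fell with MKL1, where 7.25% of all tested genes rose and 4.74% fell. NDUFS5 had 164, 127 and 110.1 CPM in MKL1 libraries, against 93.8, 100.4 and 96.9 CPM in control libraries (log2 ratio 0.46 ± 0.12 (SE), adjusted p = 0.017), and NDUFA6 (log2 ratio 0.43 ± 0.13 (SE), adjusted p = 0.040), ATP5MD, the subunit DAPIT (log2 ratio 0.52 ± 0.16 (SE), adjusted p = 0.040), and ATP5MF (log2 ratio 0.59 ± 0.18 (SE), adjusted p = 0.043) followed. At an unadjusted p under 0.05, 25 rose and 0 fell, and DESeq2 and limma voom called 9 and 1 higher and 0 lower. The median was 0.25, with 74 of 78 members positive, and 0.05 with 48 positive without MKL1 replicate 1, when 1 member was called. The count of 4 became 25 without MKL1 replicate 2, 8 without MKL1 replicate 3, 1 without caMKL1 replicate 2, 2 without caMKL1 replicate 3 and 0 without any of the 3 control replicates in turn or when scaled by library totals.

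caMKL1 was also set against MKL1 within each line. In 4T1 cells 54 members were higher and 10 lower with caMKL1, where 33.8% of all tested genes were higher and 32.8% lower, and 41 were higher and 18 lower when scaled by library totals. Ndufa4 had 155, 165 and 162 CPM with caMKL1, against 90.8, 86.8 and 86.6 CPM with MKL1 (log2 ratio 0.87 ± 0.038 (SE), adjusted p = 1.1e-15). Ndufa11 had 32.5, 31.8 and 33.3 CPM with caMKL1, against 14.6, 14.3 and 12.6 CPM with MKL1 (log2 ratio 1.23 ± 0.07 (SE), adjusted p = 1.4e-13). Uqcrh had 36.9, 39.2 and 40.6 CPM with caMKL1, against 67.8, 64.3 and 57.7 CPM with MKL1 (log2 ratio -0.70 ± 0.057 (SE), adjusted p = 9.3e-11). In all 3 the MKL1 libraries lay apart from the caMKL1 libraries. In LM2 cells 8 members were higher and 30 lower with caMKL1 than with MKL1, where 32.6% of all tested genes were higher and 31.9% lower, and 1 was higher and 56 lower when scaled by library totals. ATP5F1A had 150.1, 123 and 119.9 CPM with caMKL1, against 302, 198 and 226 CPM with MKL1 (log2 ratio -0.89 ± 0.13 (SE), adjusted p = 2.6e-05). ATP5MC2 had 15.7, 10.8 and 9.88 CPM with caMKL1, against 47.2, 22.0 and 25.6 CPM with MKL1 (log2 ratio -1.37 ± 0.23 (SE), adjusted p = 8.7e-05). SDHD had 67.8, 68.8 and 78.4 CPM with caMKL1, against 118, 88.7 and 96.9 CPM with MKL1 (log2 ratio -0.50 ± 0.11 (SE), adjusted p = 8.1e-04). The groups did not overlap in these 3, and MKL1 replicate 1 was the highest library each time. Without MKL1 replicate 1, 17 members were higher, and without MKL1 replicate 2 or MKL1 replicate 3, 5 were. COX5A and COX7B, which fell by 0.51 and 0.37 on the log2 scale, had overlapping libraries.

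An interaction term fitted to the 18 libraries of 4T1 and LM2 tested whether the lines differed, over 13127 genes matched by symbol, with 79 members. For caMKL1 over control the 4T1 log2 ratio was higher than the LM2 log2 ratio in 25 members and lower in 11, where 30.7% of all tested genes were higher and 29.6% lower. The members' share higher was thus near that of all genes, and their share lower was below it. The members' median difference was 0.21, with 13 higher and 5 lower in complex I, 3 and 1 in complex II, 2 and 2 in complex III, 3 and 0 in complex IV and 4 and 3 in complex V. Scaled by library totals, which moves the median difference of all genes to 0.37, 42 members were higher and 4 lower. The lines also differ in species, so line and species cannot be told apart. The 18 libraries were filtered and scaled together, so a difference need not equal that of the separately fitted log2 ratios given beside it. NDUFS1 differed by 1.08 ± 0.084 (SE, adjusted p = 3.3e-10), with log2 ratios of 0.72 in 4T1 and -0.49 in LM2. The c-subunit gene ATP5MC1 differed by 1.5 ± 0.23 (SE, adjusted p = 6.9e-06), also with opposite signs, and the flavoprotein SDHA by 0.68 ± 0.09 (SE, adjusted p = 1.2e-06). On the other side, NDUFB11 differed by -1.34 ± 0.25 (SE, adjusted p = 9.1e-05), ATP5MF by -1.29 ± 0.20 (SE, adjusted p = 1.1e-05) and NDUFC2 by -1.04 ± 0.19 (SE, adjusted p = 6.1e-05). These last were called higher in LM2 and had 4T1 log2 ratios of 0.17, 0.085 and 0.07. NDUFB2 rose in LM2 and fell in 4T1, a difference of -1.29 ± 0.25 (SE, adjusted p = 1.4e-04). Human NDUFB2 shares 35.9% of its exon length with other names and mouse Ndufb2 7.94%, so this difference is uncertain to that extent. The count of 11 lower members was 7 without LM2 caMKL1 replicate 2, LM2 MKL1 replicate 3, LM2 control replicate 2 or 3, 4T1 caMKL1 replicate 2 or 3, 4T1 MKL1 replicate 3 or 4T1 control replicate 2 or 3, and 6 without 4T1 caMKL1 replicate 1. For MKL1 over control the test called 0 members higher (1 at an unadjusted p under 0.05) and 1 lower, UQCRC1, at -0.59 ± 0.17 (SE, adjusted p = 0.015), where 9.31% and 10.6% of all tested genes were called. At an unadjusted p under 0.05, 13 were lower. The members' median difference was -0.22, with 72 of 79 negative, and -0.039 with 46 of 79 negative without LM2 MKL1 replicate 1. The count of lower members was 5 without LM2 caMKL1 replicate 1, 17 without LM2 MKL1 replicate 2, 8 without LM2 MKL1 replicate 3 and 0 without LM2 control replicate 1, and limma voom called 1 higher.

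**Figure D5:**
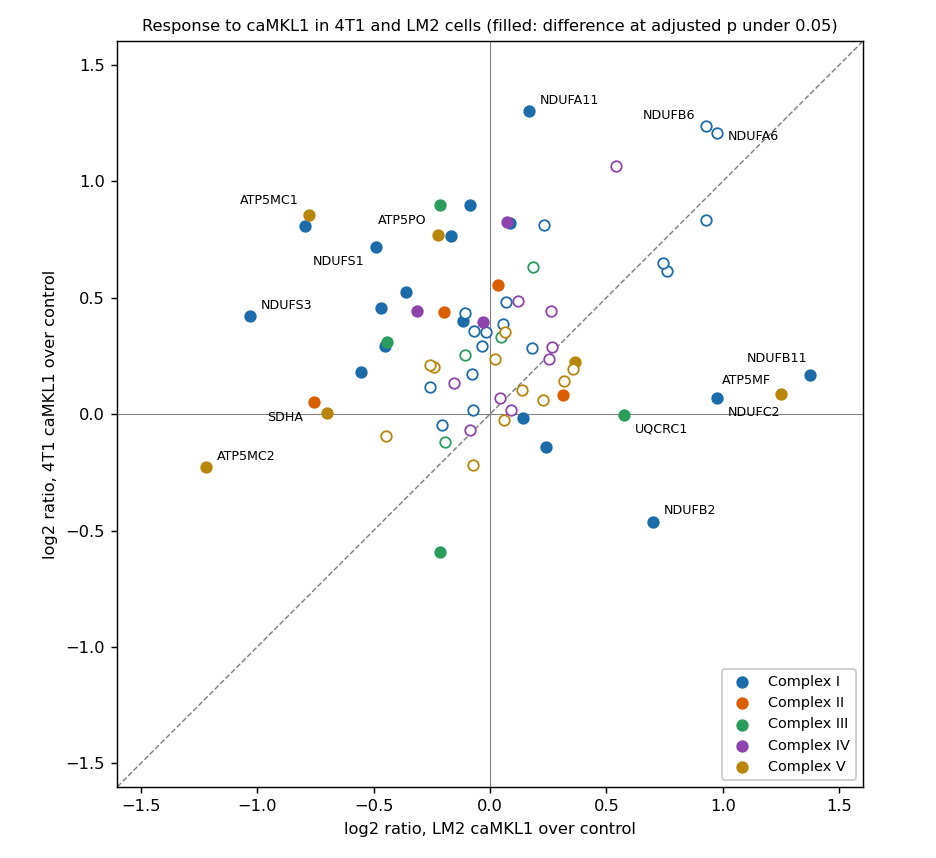
Log2 ratio of caMKL1 over control for each member matched between the lines, with 4T1 on the y axis and LM2 on the x axis; filled points had a difference between the lines at adjusted p under 0.05, and the dashed line marks equal ratios. NDUFA7, off the LM2 axis, and ATP5IF1, COX6A2 and COX7A1, each without a ratio in 1 of the lines, are not drawn. NDUFS1, NDUFS3 and ATP5MC1 lie in the upper left quadrant, and NDUFB11, ATP5MF and NDUFC2 lie at the right near 0 on the 4T1 axis.

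The experiments in 4T1, LM2 and LifeAct cells share no control libraries, so their calls can be set side by side. Of members tested in both, 54 rose in 4T1 caMKL1 and 12 in LM2 caMKL1, and 8 rose in both, which is 14.8% of the 4T1 rises and 66.7% of the LM2 rises. That share of the LM2 rises is near the 71.1% of all 76 members that rose in 4T1, as is the 72.7% of the LM2 falls (8 of 11) that rose in 4T1. LifeAct high over neg shared 9 rises with LM2 caMKL1 (16.7% of its 54 and 75.0% of the 12, where 69.2% of the 78 members rose in LifeAct) and 5 falls (55.6% of its 9 and 45.5% of the 11, where 11.54% of the 78 fell in LifeAct). It shared 36 rises with 4T1 caMKL1, which is 69.2% of its 52, where 70.1% of the 77 members rose in 4T1, and 66.7% of the 54. The shared rises thus lay close to the share of all members that rose. Called higher in all 3 were 6 members, 50% of the LM2 rises, where 47.4% of the 76 members rose in both other experiments. They were all of complex I, which held 8 of the 12 LM2 rises: NDUFA1, NDUFA6, NDUFB6, NDUFB11, NDUFS5 and NDUFS8. Called lower in all 3 was 1 member, ATP5MC2, which is 9.09% of the 11 LM2 falls. It was also the only member of the 76 that fell in both other experiments (1.32%). Both shares count this 1 gene, so no excess of shared falls can be read from them. NDUFB6 had 54.3, 52.9 and 51.1 CPM in caMKL1 libraries, against 29.5, 29.3 and 24.4 CPM in control libraries in LM2, 31.9, 35.3 and 36.3 CPM in caMKL1 libraries, against 14.8, 14.9 and 14.2 CPM in control libraries in 4T1, and 25.0, 28.5 and 27.4 CPM in high libraries, against 21.2, 20.3 and 20.8 CPM in neg libraries, with log2 ratios of 0.93, 1.24 and 0.37. NDUFA6 had log2 ratios of 0.97, 1.21 and 0.71 in the same order. Groups were apart in every one of these pairs. When scaled by library totals, NDUFA1 and NDUFS8 lost their LM2 calls and Ndufb11 had -0.014 in 4T1. Mouse Ndufb6 shares 39.0% of its exon length with Smim27.

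The promoters of 4 of those 7 genes that hold a searched motif are shown because their genes were called in the same direction in all 3 experiments. They come from RefSeq on GRCh38.p14, 250 bases before to 50 bases after the start, 5′ to 3′ on the gene's strand, with motif matches in capitals: NDUFA6 at chr22:42090723-42091022 (minus strand), NDUFB6 at chr9:32573110-32573409 (minus strand), NDUFA1 at chrX:119871582-119871881 (plus strand) and ATP5MC2 at chr12:53676034-53676333 (minus strand).
NDUFA6: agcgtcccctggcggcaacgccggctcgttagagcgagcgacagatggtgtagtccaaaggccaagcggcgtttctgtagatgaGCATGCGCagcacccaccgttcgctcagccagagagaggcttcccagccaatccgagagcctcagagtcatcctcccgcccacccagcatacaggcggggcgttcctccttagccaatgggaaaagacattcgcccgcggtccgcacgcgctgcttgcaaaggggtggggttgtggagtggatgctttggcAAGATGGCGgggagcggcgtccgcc
NDUFB6: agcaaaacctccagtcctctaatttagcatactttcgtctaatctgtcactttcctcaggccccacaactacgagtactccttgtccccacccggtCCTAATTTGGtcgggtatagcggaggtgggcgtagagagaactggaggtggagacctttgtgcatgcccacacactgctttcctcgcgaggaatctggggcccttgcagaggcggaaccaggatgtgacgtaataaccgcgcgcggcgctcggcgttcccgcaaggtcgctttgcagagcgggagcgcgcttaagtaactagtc
NDUFA1: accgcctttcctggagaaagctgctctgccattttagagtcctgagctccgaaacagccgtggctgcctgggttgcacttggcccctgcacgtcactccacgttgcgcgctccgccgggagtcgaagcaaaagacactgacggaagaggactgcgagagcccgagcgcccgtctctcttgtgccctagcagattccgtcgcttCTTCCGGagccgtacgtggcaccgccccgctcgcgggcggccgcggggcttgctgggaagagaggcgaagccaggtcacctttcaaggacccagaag
ATP5MC2: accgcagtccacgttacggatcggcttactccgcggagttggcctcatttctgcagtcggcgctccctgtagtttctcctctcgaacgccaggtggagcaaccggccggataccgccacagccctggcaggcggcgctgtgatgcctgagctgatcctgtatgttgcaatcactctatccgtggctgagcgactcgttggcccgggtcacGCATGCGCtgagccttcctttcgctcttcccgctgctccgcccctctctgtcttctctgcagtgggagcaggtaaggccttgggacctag
The motifs searched on both strands were CCGGAAG for ETS factors such as GABP, GCGCATGC for NRF1, AAGATGGCG for YY1 and the SRF site known as the CArG box. In NDUFA6 the capitals mark an NRF1 match starting at base -166 and a YY1 match at base 26, with the start as base 1, in NDUFB6 a CArG match at -154, in NDUFA1 an ETS match at -47 and in ATP5MC2 an NRF1 match at -40. Of 85 human members, 70 matched the promoter table. The ETS motif was in 20 of the 70 (28.6%) and in 10.7% of 27305 promoters of the same length, the NRF1 motif in 13 (18.6%) and 3.27%, the YY1 motif in 8 (11.4%) and 1.85%, and the CArG box in 2 (2.86%) and 1.29%. The median GC content was 61.0% in the members and 58.3% in all promoters. No motif overlapped another in the 4 windows shown. A match describes letters in the window, and binding was not measured.

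The genes around the complexes gave a further view of the same libraries, in lists of known pathway members. They are read against the shares of all tested genes called higher and lower, 36.2% and 35.8% in 4T1 caMKL1, 31.9% and 33.0% in LM2 caMKL1 and 36.0% and 35.2% in LifeAct high. Assembly factors of complex I numbered 8 higher and 5 lower of 17 in 4T1 caMKL1, 6 and 5 of 18 in LM2 caMKL1, and 15 and 2 of 18 in LifeAct high. In percent these were 47.1 and 29.4 in 4T1, 33.3 and 27.8 in LM2 and 83.3 and 11.1 in LifeAct, so the LM2 shares lay near those of all genes. For complex IV assembly they were 12 and 4 of 21 (57.1% and 19.0%), 8 and 6 of 23 (34.8% and 26.1%), and 14 and 2 of 23 (60.9% and 8.70%). Tmem70, which builds the c-ring of ATP synthase, averaged 122 ± 3.26 CPM in 4T1 caMKL1 libraries and 27.3 ± 1.61 CPM in control libraries (log2 ratio 2.16 ± 0.046 (SE), adjusted p = 3.2e-22; SD, n = 3). In LM2, NUBPL, which inserts iron-sulfur clusters into complex I, averaged 66.8 ± 6.05 CPM with caMKL1 and 16.4 ± 2.11 CPM in control (log2 ratio 2.03 ± 0.12 (SE), adjusted p = 3.7e-10). TTC19, a complex III factor, averaged 225 ± 7.70 CPM with caMKL1 and 67.2 ± 0.803 CPM in control (log2 ratio 1.74 ± 0.082 (SE), adjusted p = 3.5e-11). Each of these 3 was above control in every library. The lists of Tmem70 and TTC19 were mixed. Of 5 complex V assembly factors tested in 4T1 caMKL1, 2 rose and 2 fell (40% and 40%). Of 6 complex III assembly factors tested in LM2 caMKL1, 1 rose and 3 fell (16.7% and 50%). In LifeAct, COA1, counted with complex I assembly, averaged 92.7 ± 2.71 CPM in high and 464 ± 7.24 CPM in neg libraries (log2 ratio -2.32 ± 0.041 (SE), adjusted p = 3.9e-27), the largest fall in the 5 assembly lists there.

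Of the mitochondrially encoded mRNAs, which supply the partner subunits, 1 of 12 rose and 6 fell in 4T1 caMKL1, all 13 rose in LM2 caMKL1 with a median log2 ratio of 1.05, and 6 rose and 4 fell of 13 in LifeAct high. The LM2 replicates were uneven. Before TMM scaling, mitochondrially encoded genes took 7.76% of counts in caMKL1 replicate 1, within the control range of 7.73% to 8.94%. They took 13.4% and 13.6% in caMKL1 replicates 2 and 3. Mitochondrial ribosomal proteins numbered 29 higher and 20 lower of 77 in 4T1 caMKL1 (37.7% and 26.0%), 7 and 31 of 77 in LM2 caMKL1 (9.09% and 40.3%), and 65 and 1 of 77 in LifeAct high (84.4% and 1.30%). The share higher in 4T1 was near that of all genes, and the median log2 ratios were 0.070, -0.27 and 0.55 in that order. Enzymes of the citric acid cycle and pyruvate dehydrogenase numbered 11 and 2 of 15 (73.3% and 13.3%), 2 and 8 of 16 (12.5% and 50%), and 11 and 3 of 16 (68.8% and 18.8%). Cs, the citrate synthase, averaged 365 ± 5.33 CPM in 4T1 caMKL1 libraries and 244 ± 7.12 CPM in control (log2 ratio 0.58 ± 0.029 (SE), adjusted p = 5.6e-15), and in LM2 CS averaged 188 ± 14.8 CPM with caMKL1 and 188 ± 9.11 CPM in control and did not pass (log2 ratio 0.0012 ± 0.10 (SE), adjusted p = 0.99). The difference of its 4T1 and LM2 log2 ratios was 0.45 ± 0.094 (SE, adjusted p = 2.5e-04) in the interaction fit.

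Regulators of mitochondrial biogenesis numbered 5 higher and 8 lower of 15 in 4T1 caMKL1 (33.3% and 53.3%), 1 and 6 of 15 in LM2 caMKL1 (6.67% and 40.0%), and 9 and 3 of 15 in LifeAct high (60.0% and 20.0%). PPARGC1A, which encodes the coactivator PGC-1alpha, rose in both lines. It averaged 69.7 ± 8.42 CPM in LM2 caMKL1 and 7.80 ± 1.66 CPM in LM2 control (log2 ratio 3.16 ± 0.16 (SE), adjusted p = 6.0e-11). In 4T1 Ppargc1a averaged 7.47 ± 0.701 CPM with caMKL1 and 0.0735 ± 0.101 CPM in control (adjusted p = 1.2e-14), where control counts were too few for a stable ratio. Tfam, the mitochondrial transcription and packaging factor, fell in both, to 36.0 ± 0.0644 CPM in 4T1 caMKL1, against 59.7 ± 2.11 CPM in control (log2 ratio -0.73 ± 0.046 (SE), adjusted p = 7.3e-13), and TFAM to 126 ± 10.2 CPM in LM2 caMKL1, against 216 ± 13.6 CPM in control (log2 ratio -0.78 ± 0.091 (SE), adjusted p = 1.8e-06). NRF1 fell as well, by 0.44 in 4T1 and 0.48 in LM2 on the log2 scale. In LifeAct high PPRC1, a PGC-1 relative, averaged 168 ± 8.13 CPM and in neg 64.0 ± 6.04 CPM (log2 ratio 1.39 ± 0.055 (SE), adjusted p = 6.6e-19). TFAM averaged 71.9 ± 5.82 CPM in LifeAct high and 45.5 ± 5.00 CPM in neg (log2 ratio 0.65 ± 0.068 (SE), adjusted p = 1.2e-09), the direction opposite to both caMKL1 groups.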

How the data were processed

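RNA from 27 libraries was read in pairs of 150 bp, per the labels' protocols; 4T1 and LM2 libraries were polyA selected and LifeAct libraries depleted of ribosomal RNA. The deposited values are raw counts of read pairs per gene name, made by the authors with featureCounts 2.0.1 on STAR alignments against Ensembl 103 (GRCh38) or 102 (GRCm38), per the file headers. The headers show no strand option, so overlapping antisense genes cannot be told apart, and no option to keep reads that map to several places or overlap several genes, so featureCounts leaves those out. Of the 85 human members, 48 have pseudogene names (173 in all), and 2 share at least 50% of their exon length with another name (ATP5ME and NDUFS7). All columns were matched to samples, with 0 left over.

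Each experiment was fitted by itself (9 libraries, a mean per group) in R 4.3.3 by the quasi-likelihood F test of edgeR 4.0.16, after edgeR's filter with a minimum count of 10 and TMM scaling; 16297 genes were tested in 4T1, 18893 in LM2 and 21869 in LifeAct. P-values were adjusted by Benjamini-Hochberg over all tested genes at 0.05. Log2 ratios carry a prior count of 0.125, and their SE is the absolute log2 ratio over the square root of F. CPM are TMM-scaled, and TPM served to compare genes within a group. The line difference was an interaction in 18 libraries, with complex V symbols matched by a table of older and newer names. The biological coefficient of variation was 0.0345 in 4T1, 0.118 in LM2 and 0.0439 in LifeAct. Replicates differed beyond sampling noise (chi-square per gene 1.40 to 48.4 over 27 pairs). The fit was tested on simulated data.

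Members named with values were, per comparison, up to 3 of a complex with the smallest adjusted p at 5 CPM or more, the largest rise and fall, and the isoforms; others are named by their calls, and 1 member enters the totals and is not reported here. Members and lists were chosen with earlier results of these data known. Alternatives were DESeq2 1.42.0, limma 3.58.1 voom, DESeq2 size factors, library totals, no filter, mitochondrially encoded genes left out, the replicate number as a block, and each library left out.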

Additional observations from a re-analysis of the deposited data

Results flagged for a closer look

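The 4T1 and LM2 responses to caMKL1 differed by the interaction test in 25 members with the higher log2 ratio in 4T1 and 11 with the lower (edgeR, adjusted p under 0.05). Of all tested genes 30.7% were higher and 29.6% lower, and 60.2% were called in either direction. The members' share higher was near that of all genes, and their share lower was below it. Among those higher in 4T1 at 5 CPM or more in both lines were NDUFS1 (difference of log2 ratios 1.08), SDHA (0.68), ATP5PO (0.87) and ATP5MC1 (1.5). Among those lower in 4T1 were NDUFB11 (-1.34), ATP5MF (-1.29), NDUFB2 (-1.29), NDUFC2 (-1.04) and UQCRC1 (-0.71). ATP5PO shares 21.6% of its exon length with other names in human and 43.8% in mouse (Atp5o). For NDUFB2 these shares are 35.9% and 7.94%. Shared reads go uncounted, so these differences are uncertain to that extent. For MKL1 the difference was called lower in 1 member, UQCRC1 (-0.59), beside 19.9% of all tested genes called.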

How the results depend on the processing

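Of the counts of called members and their alternatives, 324 stayed within 1.5 times and 54 moved. For single members 7295 values kept direction and call, 365 lost the call, 77 gained it and 21 reversed. Scaling by library totals gave 6 higher and 39 lower in LM2 caMKL1 over control, 0 higher in LM2 MKL1, 1 and 56 in LM2 caMKL1 over MKL1, 20 lower in 4T1 caMKL1, 8 and 6 in 4T1 MKL1, 18 lower in 4T1 caMKL1 over MKL1, 14 and 16 in LifeAct high over low, 42 and 4 in the line difference for caMKL1 and 0 lower in that for MKL1. Under it the reversed log2 ratios were ATP5F1C -0.050 and SDHB -0.37 in LM2 caMKL1; Ndufb11 -0.014, Ndufc1 -0.0091, Ndufa9 -0.0017, Cox7c -0.048, Atp5j -0.041, Ndufv1 -0.065, Sdhc -0.10, Cox6b1 -0.16, Sdha -0.13 and Cox8a -0.11 in 4T1 caMKL1; Uqcrc1 -0.012 and Cox8a -0.093 in 4T1 caMKL1 over MKL1; and ATP5F1C 0.080 and NDUFB5 0.055 in the line difference. By its construction this scaling moves all genes of a library together. Without MKL1 replicate 1, COX7A2, NDUFA4 and COX6A1 reversed in LM2 caMKL1 over MKL1, with log2 ratios of -0.21 to 0.28, -0.28 to 0.35 and -0.35 to 0.31 over the libraries left out in turn; without both first treated LM2 libraries COX7A2 (0.22) and NDUFA4 (0.30) did. Leaving both out gave 20 and 22 in LM2 caMKL1, 19 higher over MKL1, and 2 and 2 in the line difference for MKL1, a setting chosen after seeing the data.

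LM2 MKL1 over control gave 9 higher with DESeq2, 1 with limma voom, 27 without the filter and 14 with the replicate block; voom gave 1 higher in the line difference for MKL1. The replicate numbers were taken as shared names, since 3 of 9 same-number correlations of deviations passed 0.1 in 4T1 (-0.037 to 0.216; other numbers -0.141 to 0.0797), 3 of 9 in LM2 (0.0030 to 0.297; other numbers -0.317 to 0.177) and 0 of 9 for LifeAct (-0.033 to 0.0020). As a hint from the data, not the design, 8 of 9 were above 0 in 4T1 and 9 of 9 in LM2, and the own number gave the highest correlation in 12 of 18 pairings of a library with another group in each. The block moved the LM2 MKL1 calls over all genes to 3258, against 2265 without it, and moved no other count of a comparison by over 1.5 times; the causes of these moves were not tested. Leaving out each library in turn gave 11 to 19 higher and 10 to 19 lower in LM2 caMKL1, 0 to 25 and 0 in LM2 MKL1, 5 to 17 and 21 to 42 in LM2 caMKL1 over MKL1, 52 to 57 and 4 to 5 in 4T1 caMKL1, 12 to 19 and 3 in 4T1 MKL1, 53 to 54 and 8 to 11 in 4T1 caMKL1 over MKL1, 51 to 57 and 9 to 12 in LifeAct high over neg, 45 to 50 and 2 to 5 in low over neg, 16 to 27 and 5 to 8 in high over low, 25 to 34 and 6 to 15 in the line difference for caMKL1, and 0 to 1 and 0 to 17 in that for MKL1. Whether depth or the spread of LM2 limited the LM2 calls was not tested.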
